A study of Mus musculus with 8 samples.

Results

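The genes described here are 38 that carry sugar into the cell and break it down, or that respond to low oxygen. They form 2 lists given by gene symbol, namely 18 genes of glucose uptake and glycolysis (2 glucose transporters, 14 genes of the glycolytic steps from hexokinase to pyruvate kinase, and 2 lactate dehydrogenases) and 20 targets of hypoxia-inducible factor (HIF) outside glycolysis. All 38 were found in both deposited tables, among 12818 genes measured in ribosome footprints and 13436 measured in total RNA, and all 38 passed the filter on low values in both. The cells were J1 mouse embryonic stem cells of strain 129S4/SvJae, grown without feeder cells in serum and leukemia inhibitory factor. They carried either an shRNA against eIF4A2, an RNA helicase related to the initiation factor eIF4A1, or a control shRNA. Both groups were selected with puromycin for 3 days and lysed on day 4.5 after infection, following 1 min of cycloheximide. Knockdown footprints, control footprints, knockdown total RNA and control total RNA make up the 4 groups, each of 2 libraries that the protocol calls biological replicates. The protocol names 2 shRNAs against eIF4A2 and 2 control shRNAs (shNT and shGFP), and the sources used here do not say which of them each replicate carried.

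Glycolysis turns glucose into pyruvate in the cytosol, and lactate dehydrogenase turns pyruvate into lactate. Mouse embryonic stem cells use both glycolysis and respiration, and the balance between them shifts as the cells leave the naive state. HIF is a transcription factor made of an alpha subunit and a partner called Arnt. When oxygen is ample, prolyl hydroxylases of the Egln family mark the alpha subunit for the VHL ubiquitin ligase and it is destroyed. When oxygen is low, the alpha subunit joins Arnt on DNA at a short core motif, ACGTG or GCGTG, and raises many glycolytic genes together with genes of mitochondrial turnover, collagen folding and blood vessel growth.

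Levels are given in CPM, reads per gene divided by an effective library size and scaled to 1e6 reads, as the authors deposited them. The tables of footprints and of total RNA were scaled separately, so changes were tested inside each. Footprint libraries held between 7947827 and 10682677 reads and total RNA libraries between 8564582 and 12840349. Fold changes are knockdown over control taken as log2(CPM + 1), a scale that makes the changes of genes with few reads look smaller than they are, and were tested with limma over all genes of a table. With 2 libraries against 2 the smallest p of an exact permutation test of a single gene is 0.333. The targeted gene, Eif4a2, had 311 and 153 CPM of footprints in the knockdown libraries, against 395 and 409 CPM in the control libraries, and 583 and 617 CPM of total RNA in the knockdown, against 739 and 969 CPM in the control. The knockdown was thus partial, and in footprints replicate 2 was lower than replicate 1. All 10 embryonic stem cell markers checked were measured in both assays. Their summed footprints lay between 4999.8 and 5064 CPM in the knockdown and between 6881 and 7227 CPM in the control, and their summed total RNA between 5131 and 5157 CPM in the knockdown and between 6421 and 7293 CPM in the control. Of 10 fibroblast markers 6 were measured, while Col3a1, Dcn, Lum and Postn had no entry under these symbols in either assay. The sum of the 6 was mostly the broadly expressed Vim. It lay between 245 and 255 CPM of footprints in the knockdown, against 339 and 339.8 CPM in the control. For total RNA it lay between 127 and 135 CPM in the knockdown, against 189 to 222 CPM in the control. Both marker sums were thus lower in the knockdown, as most of the glycolytic genes were, and their part in the results was not tested. Zfp42 made up much of the stem cell difference, with 959 and 820.2 CPM of footprints in the knockdown, against 2027 and 2300.5 CPM in the control. Of the 10 stem cell markers 8 had a negative log2 fold change in each assay, while Lin28a (0.44 ± 0.17 for footprints and 0.52 ± 0.15 for total RNA) and Utf1 (0.26 ± 0.17 and 0.42 ± 0.30) had positive ones. In bulk samples, fewer cells of a kind and less RNA per cell cannot be told apart.

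The starts of these genes carry the HIF core motif often. RefSeq promoter windows (build GRCm38.p6) ran from 250 bases before to 50 bases after each gene's start. At least 1 window was found for 32 of the 38 genes, and 30 of these had ACGTG or GCGTG on either strand in at least 1 of them. Counted by gene this was 93.8%, against 68.8% of the 9600 genes with a window among those tested in both assays. Because 20 of the 38 were listed as HIF targets, a high share is no independent result. Counted by window, the motif stood in 42 of 53 windows of the 38 genes (79.2%), against 62.7% of windows of the genes tested in both assays and 43.8% of all 32851 windows. A match of 5 bases is common by itself, and overlapping matches on the 2 strands were merged. Shown here are the windows of 5 genes whose knockdown libraries all lay below their controls in both assays and on which the results turn, Pfkp, Pgk1 and Ldha of glycolysis and Bnip3 and P4ha1 of the hypoxia list, with motif matches in capitals. Pfkp, at chr13:6648722-6649021 on the minus strand, has 4 separate matches; Pgk1, at chrX:106186850-106187149 on the plus strand, has 2. Ldha has 2 windows, and the one with more matches (5) is shown, at chr7:46845554-46845853 on the plus strand. Bnip3, at chr7:138909457-138909756 on the minus strand, has 4 and P4ha1, at chr10:59323046-59323345 on the plus strand, has 3.
Pfkp: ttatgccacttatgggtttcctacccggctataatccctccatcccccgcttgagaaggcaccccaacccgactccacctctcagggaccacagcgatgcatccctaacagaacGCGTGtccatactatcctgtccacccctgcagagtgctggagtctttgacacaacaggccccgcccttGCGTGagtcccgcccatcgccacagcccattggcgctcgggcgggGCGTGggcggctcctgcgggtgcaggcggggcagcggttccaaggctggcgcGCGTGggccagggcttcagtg
Pgk1: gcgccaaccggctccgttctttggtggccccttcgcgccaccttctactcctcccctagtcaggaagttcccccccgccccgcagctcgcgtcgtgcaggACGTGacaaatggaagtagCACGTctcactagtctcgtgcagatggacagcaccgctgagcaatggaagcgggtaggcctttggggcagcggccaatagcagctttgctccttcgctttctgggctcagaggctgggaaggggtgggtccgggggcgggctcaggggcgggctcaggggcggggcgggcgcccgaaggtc
Ldha: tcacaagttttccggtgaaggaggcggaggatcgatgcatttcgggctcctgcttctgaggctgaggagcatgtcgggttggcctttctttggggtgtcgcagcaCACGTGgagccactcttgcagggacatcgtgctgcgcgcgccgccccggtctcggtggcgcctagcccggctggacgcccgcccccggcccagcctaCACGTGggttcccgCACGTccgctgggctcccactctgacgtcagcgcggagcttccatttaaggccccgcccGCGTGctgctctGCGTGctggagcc
Bnip3: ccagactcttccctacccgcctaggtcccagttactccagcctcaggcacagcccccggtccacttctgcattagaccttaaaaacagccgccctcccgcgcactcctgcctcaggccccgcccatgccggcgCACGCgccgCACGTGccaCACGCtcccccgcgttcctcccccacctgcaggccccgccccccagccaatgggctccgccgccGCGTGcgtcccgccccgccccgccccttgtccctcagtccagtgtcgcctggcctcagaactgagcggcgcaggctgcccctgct
P4ha1: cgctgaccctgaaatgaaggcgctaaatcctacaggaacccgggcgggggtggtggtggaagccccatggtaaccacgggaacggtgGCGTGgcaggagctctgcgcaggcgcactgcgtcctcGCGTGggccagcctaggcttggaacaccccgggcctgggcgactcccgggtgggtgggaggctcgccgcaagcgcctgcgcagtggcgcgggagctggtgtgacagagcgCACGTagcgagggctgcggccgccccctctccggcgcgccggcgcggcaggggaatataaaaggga
Pgk1 and Ldha hold ACGTG on 1 strand or the other, and Ldha and Bnip3 hold the palindrome CACGTG, which reads as ACGTG on both strands. In Pfkp the 4 matches are all GCGTG. A match is a description of the window and does not show that HIF binds there in these cells. The 5 genes shown were picked, and the number of matches varied among the other members. Tpi1, below its controls in both assays, had 0 matches, and Pfkl and Aldoa had at most 1 per window, while Fam162a had 6. P4ha2, whose footprints overlapped between groups, had 4, and Gapdh, whose total RNA overlapped, had 3. Whether the number of matches goes with the change of a gene was not tested.

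Genes of glucose uptake and glycolysis were lower in the knockdown in most cases, in footprints and in total RNA alike. In footprints 14 of 18 had a negative log2 fold change, with a median of -0.37, where 49.4% of all 12723 tested genes were negative and their median was 0.0052. In total RNA 16 of 18 were negative, with a median of -0.36, where 50.3% of 13436 genes were negative and their median was -0.0024. The span was wide, from -1.20 for Pfkp to 0.54 for Pfkm in footprints and from -1.25 to 0.63 for the same genes in total RNA. In both knockdown libraries 12 of 18 genes lay below both control libraries in footprints (22.5% of all tested genes did) and 12 of 18 in total RNA (24.6%), and 9 genes did so in both assays (12.4% of 12358 genes), namely Hk2, Pfkl, Pfkp, Aldoa, Aldoc, Tpi1, Pgk1, Pkm and Ldha. Above both controls lay 1 gene in footprints (22.3% of all tested genes) and 2 in total RNA (23.3%), and Pfkm was the 1 glycolytic gene that did so in both assays (12.3% of 12358 genes).

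After adjustment over all genes 0 of the 18 passed limma in either assay, as did 0 of all genes tested (0% in each assay), while 1636 genes in footprints and 2002 in total RNA had an unadjusted p below 0.05. On the reads of total RNA, edgeR's quasi-likelihood test also called 0 genes. DESeq2 called 272 (2.02% of all tested genes), among them 5 of the 18 glycolytic genes. Without adjustment 9 glycolytic genes had p below 0.05 as lower in footprints (6.74% of all tested genes did) and 1 as higher (6.12%), and in total RNA 9 were lower (8.08%) and 1 higher (6.82%). The authors' deposited table, whose test reports a likelihood ratio, listed 1 of the 18 as lower at an FDR below 0.05 in footprints, Pfkp (0.889% of all its genes were lower), and 5 in total RNA, Pfkp, Aldoa, Aldoc, Tpi1 and Pgk1 (3.19%). It listed 0 of the 18 as higher in either assay (0.788% of genes in footprints and 2.21% in total RNA). The footprint median was -0.55 without control 2. With libraries scaled to their total reads instead, the median of all footprint genes became 0.12 and that of the glycolytic genes -0.25, so that the distance between them was nearly the same, while the share of lower genes among those with an unadjusted p below 0.05 was 29.5% in place of 52.4% in footprints and 41.2% in place of 54.2% in total RNA. The total RNA median was -0.31 without control 1, with 13 of the 18 negative, and -0.39 without control 2, with 16 negative.

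**Figure D1:**
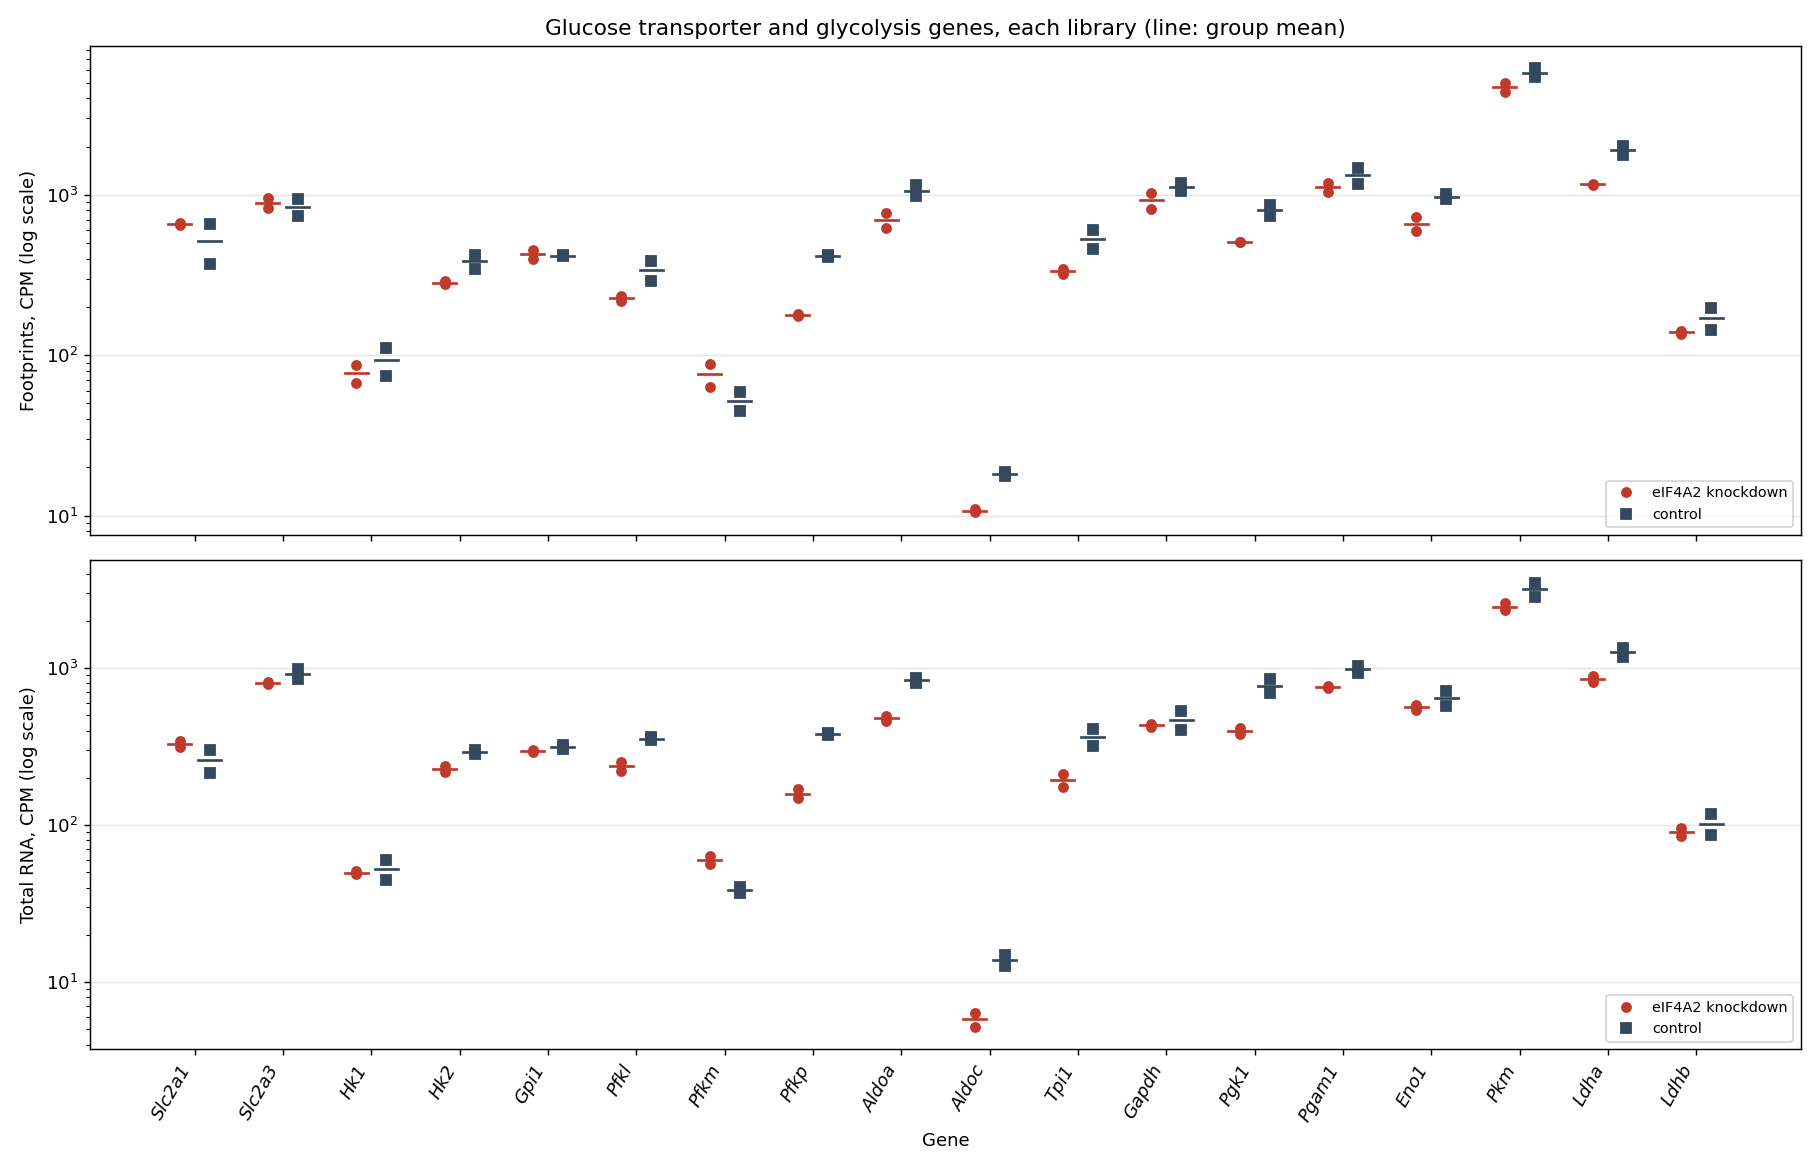
CPM on a log axis of the 18 genes of glucose uptake and glycolysis, in pathway order, in footprints (top) and total RNA (bottom). Red circles are the 2 eIF4A2 knockdown libraries and dark squares the 2 control libraries, with a line at each group's mean. Pfkp sits at 177 and 182 CPM of footprints in the knockdown libraries, against 419 and 409 CPM in the control libraries, while Pfkm lies above its controls.

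At the entry of the pathway the transporters had no lower mean in the footprints of the knockdown. Slc2a1 (GLUT1), the broadly used glucose transporter, had 645 and 665 CPM of footprints in the knockdown libraries, against 661 and 369 CPM in the control libraries. Its total RNA was 342 and 314 CPM in the knockdown and 303 and 214 CPM in the control. The difference lay in control 2, which was low in both assays, and without it the footprint log2 fold change was -0.01 in place of 0.41. Slc2a3 (GLUT3), a high-affinity glucose transporter, had 824 and 954 CPM of footprints in the knockdown, against 941 and 744 CPM in the control, so that the groups overlapped, and its total RNA log2 fold change was -0.18 ± 0.15 (SE). Hexokinase traps glucose in the cell by phosphorylation. Hk2, its inducible form, had 277 and 289.9 CPM of footprints in the knockdown, against 421 and 347 CPM in the control, and 237 and 217 CPM of total RNA in the knockdown, against 299.7 and 282 CPM in the control. Both knockdown libraries were below both controls in each assay, at 73.8% and 78.0% of the control mean, and limma's adjusted p was 0.338 in footprints and 0.301 in total RNA. Hk1, the constitutive form, overlapped between groups in both assays (-0.25 ± 0.23 in footprints and -0.05 ± 0.18 in total RNA), and so did the footprints of Gpi1, the isomerase of the next step (0.02 ± 0.17), whose total RNA was 302 and 294 CPM in the knockdown, against 325 and 307 CPM in the control.

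Phosphofructokinase, which commits sugar to glycolysis, is built from subunits of 3 genes, and these did not share a direction. Pfkp, the platelet-type subunit, had 177 and 182 CPM of footprints in the knockdown libraries, against 419 and 409 CPM in the control libraries. In total RNA it had 169 and 149 CPM in the knockdown, against 374 and 386 CPM in the control. Each knockdown library thus held less than 0.5 of the lowest control value in both assays, at 43.3% of the control mean in footprints and 41.8% in total RNA. The log2 fold change was -1.20 ± 0.15 for footprints and -1.25 ± 0.14 for total RNA (SE, n = 2 libraries each). limma's adjusted p of 0.0692 and 0.0819 was in each assay the smallest value reached. Adjustment gives tied values to genes of different unadjusted p. Other genes shared the smallest value in each assay, so it does not place Pfkp first. The authors' deposited table gave FDRs of 3.13e-04 and 1.93e-07. Pfkl, the liver-type subunit, was also lower, at 233 and 219 CPM of footprints in the knockdown, against 387 and 289 CPM in the control, and 253 and 222 CPM of total RNA in the knockdown, against 346 and 366 CPM in the control. Pfkm, the muscle-type subunit, went the other way, with 63.5 and 88.4 CPM of footprints in the knockdown, against 58.8 and 44.6 CPM in the control. Total RNA of Pfkm was 56.5 and 63.6 CPM in the knockdown, against 40.3 and 36.8 CPM in the control, 156% of the control mean. Neither passed over all genes, with log2 fold changes in total RNA of -0.58 ± 0.14 for Pfkl (limma's adjusted p = 0.157) and 0.63 ± 0.15 for Pfkm (adjusted p = 0.149).

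Taken as shares of the CPM of the 3 genes, which no scaling of a library can alter, the mix of subunits differed between the groups. These shares were computed after the values had been seen, and they count reads without regard to transcript length. Pfkp held 37.3% and 37.1% of the footprints in the knockdown libraries, against 48.5% and 55.1% in the control libraries, and 35.3% and 34.2% of the total RNA in the knockdown, against 49.2% and 49.0% in the control. Pfkm held 13.4% and 18.1% of the footprints in the knockdown, against 6.80% and 6.01% in the control, and 11.8% and 14.6% of the total RNA in the knockdown, against 5.30% and 4.67% in the control. The groups did not overlap for either gene in either assay. Nor did they for Pfkl, with 49.3% and 44.8% of the footprints in the knockdown, against 44.7% and 38.9% in the control. Its total RNA share was 52.9% and 51.1% in the knockdown, against 45.5% and 46.4% in the control. How often such shares separate over all genes was not computed, and the smallest p of an exact permutation test with 2 libraries against 2 is 0.333. The summed CPM of the 3 genes was lower in the knockdown as well, at 473 and 489 CPM of footprints, against 865 and 742 CPM in the control, and at 479 and 435 CPM of total RNA, against 760.4 and 789 CPM in the control. Other pairs of paralogs behaved less alike. Ldhb held 11.0% and 10.4% of the lactate dehydrogenase footprints in the knockdown, against 8.92% and 7.45% in the control, while Hk2's share of hexokinase footprints (80.6% and 76.9% in the knockdown, against 79.1% and 82.3% in the control) and Aldoc's share of aldolase footprints overlapped between groups. In total RNA the groups did not overlap for these 2 shares. Hk2 held 82.9% and 81.0% of the pair in the knockdown, against 83.4% and 86.3% in the control. Aldoc held 1.28% and 1.11% in the knockdown, against 1.56% and 1.68% in the control. Slc2a1's share of the total RNA of Slc2a1 and Slc2a3 was 29.4% and 28.2% in the knockdown, against 26.2% and 17.8% in the control. Its share of footprints overlapped between groups.

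**Figure D2:**
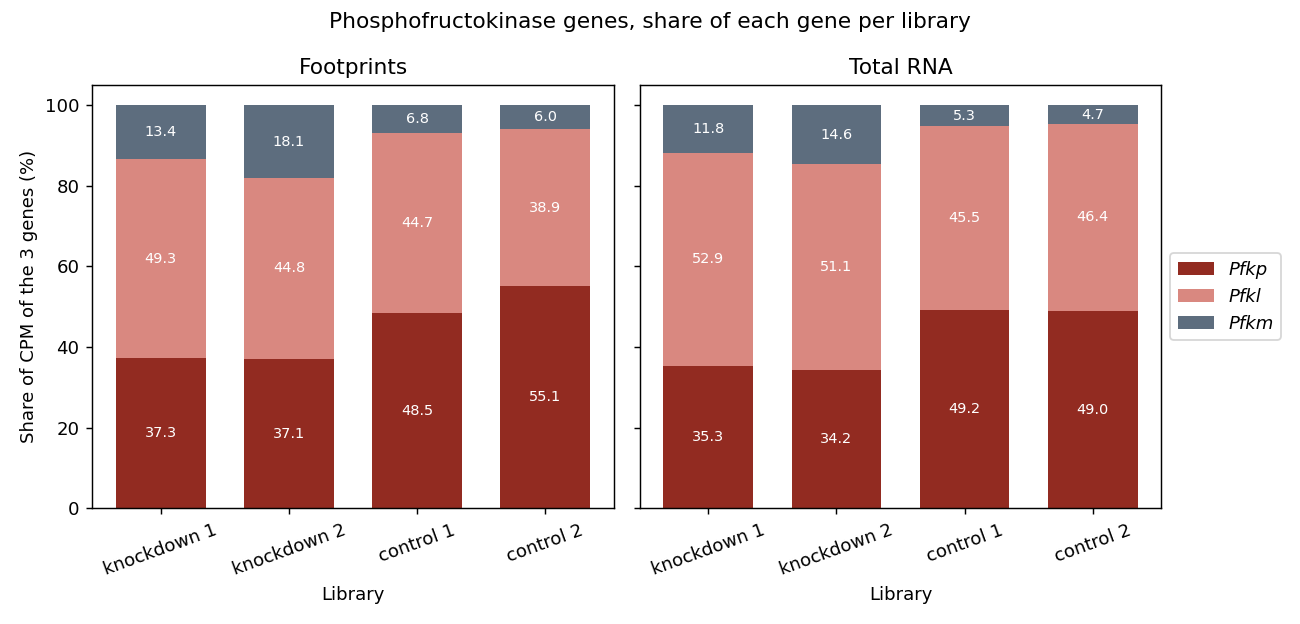
Share in percent of the CPM of Pfkp, Pfkl and Pfkm that each gene held, by library, in footprints (left) and total RNA (right). Bars add to 100% in each library; Pfkp holds between 34.2% and 37.3% in the knockdown libraries and between 48.5% and 55.1% in the control libraries of the 2 assays, and Pfkm between 11.8% and 18.1% in the knockdown and between 4.67% and 6.80% in the control.

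The enzymes that split the 6-carbon sugar were lower in every knockdown library. Aldoa, the main aldolase of most tissues, had 619 and 776 CPM of footprints in the knockdown, against 1151 and 977 CPM in the control, and 495 and 462 CPM of total RNA in the knockdown, against 801 and 868 CPM in the control. Aldoc, the brain-type aldolase, had fewer reads, with 11.0 and 10.5 CPM of footprints in the knockdown, against 18.7 and 17.6 CPM in the control, and 6.39 and 5.19 CPM of total RNA in the knockdown, against 12.7 and 14.9 CPM in the control. Between 69 and 178 reads per library stood behind Aldoc. Tpi1, which interconverts the 3-carbon products, had 346 and 320.0 CPM of footprints in the knockdown, against 607 and 462 CPM in the control. Total RNA of Tpi1 was 212 and 175 CPM in the knockdown, against 317 and 412 CPM in the control, 53.1% of the control mean. The log2 fold changes in total RNA were -0.80 ± 0.14 for Aldoa, -1.12 ± 0.20 for Aldoc and -0.90 ± 0.19 for Tpi1, with limma's adjusted p at 0.114, 0.114 and 0.128. The authors' deposited table of total RNA gave FDRs of 0.00660, 5.95e-04 and 0.00184 for them.

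Of the later steps, which yield ATP and pyruvate, Pgk1 and Ldha stood lowest. Pgk1, the kinase of the first ATP-yielding step, had 506 and 509 CPM of footprints in the knockdown, against 866 and 739.6 CPM in the control, and 414 and 381 CPM of total RNA in the knockdown, against 699 and 849 CPM in the control. In total RNA this came to 51.3% of the control mean (log2 fold change -0.95 ± 0.16, limma's adjusted p = 0.112, and an FDR of 8.06e-04 in the authors' deposited table). Ldha, which regenerates NAD+ by making lactate, had 1152 and 1171 CPM of footprints in the knockdown, against 2011 and 1773 CPM in the control, and 892 and 819.6 CPM of total RNA in the knockdown, against 1184 and 1343 CPM in the control. Its knockdown values were close together and below both controls in each assay, with a log2 fold change of -0.70 ± 0.20 for footprints and of -0.56 ± 0.16 for total RNA (limma's adjusted p = 0.222 and 0.201). Pkm, the pyruvate kinase gene, had 4380.2 and 4992 CPM of footprints in the knockdown, against 6172 and 5423 CPM in the control, and 2580.3 and 2337 CPM of total RNA in the knockdown, against 2835 and 3502 CPM in the control. Its groups did not overlap, at 80.8% and 77.6% of the control mean, but the difference was not much above its error (-0.31 ± 0.26 and -0.36 ± 0.19).

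The 4 remaining enzymes of these steps had smaller or less even differences. Eno1 (enolase) had 591 and 733 CPM of footprints in the knockdown, against 1007 and 947 CPM in the control, whereas its total RNA overlapped between groups, at 584 and 542 CPM in the knockdown and 711 and 573 CPM in the control. Pgam1, the mutase before it, had the reverse pattern, with overlapping footprints (-0.24 ± 0.20) and total RNA of 774 and 751 CPM in the knockdown, against 1029 and 937 CPM in the control. Gapdh, which is often used as a reference gene, had 817 and 1032 CPM of footprints in the knockdown, against 1050.2 and 1190.3 CPM in the control, and overlapped in total RNA (-0.11 ± 0.18). Ldhb, the heart-type lactate dehydrogenase, had -0.27 ± 0.19 in footprints and -0.16 ± 0.18 in total RNA. None of these 4 passed limma over all genes, the smallest adjusted p among them being 0.273, for Eno1 in footprints. Gapdh and several other glycolytic genes have processed copies elsewhere in the mouse genome, and the sources used here do not say how the authors' counting split reads shared with them.

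Among the 20 hypoxia-inducible genes outside glycolysis a few were far below control and most others near it. In footprints 15 of 20 had a negative log2 fold change (median -0.26), where 49.4% of all tested genes did, and in total RNA 16 of 20 (median -0.19), where 50.3% did. Both knockdown libraries lay below both controls for 11 genes in footprints (22.5% of all tested genes) and 12 in total RNA (24.6%). In both assays 8 genes did so, where 12.4% of all genes did (Bnip3, Fam162a, Kdm3a, Mxi1, Narf, Ndrg1, Ndufa4l2 and P4ha1). Above both controls lay 2 genes in footprints (22.3% of all tested genes) and 2 in total RNA (23.3%), with Ddit4 alone there in both assays (12.3%). Values ran from -1.82 (Ndufa4l2) to 0.78 (Ddit4) in footprints and from -1.25 (Ndufa4l2) to 0.59 (Ddit4) in total RNA. limma passed 0 of the 20 after adjustment in either assay (0% of all tested genes in each). DESeq2 passed 3 in total RNA, Ak4, Bnip3 and P4ha1 (2.02% of all tested genes). At limma's unadjusted p below 0.05, 3 were lower (6.74% of all tested genes) and 1 higher (6.12%) in footprints. In total RNA 6 were lower (8.08%) and 0 higher (6.82%) in the same way. The authors' deposited table listed 3 as lower in footprints, Bnip3, P4ha1 and Ndufa4l2, against 0.889% of its genes, and 4 in total RNA, those 3 and Ak4, against 3.19%. It listed 0 as higher (0.788% and 2.21% of its genes). In total RNA 11 of the 20 passed limma without control 1, of which 8 were lower, where 46.1% of all genes passed. Without control 2, 9 of the 20 passed, all lower, where 25.4% of all genes passed, and Egln3 is among them with its direction turned (-0.45).

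**Figure D3:**
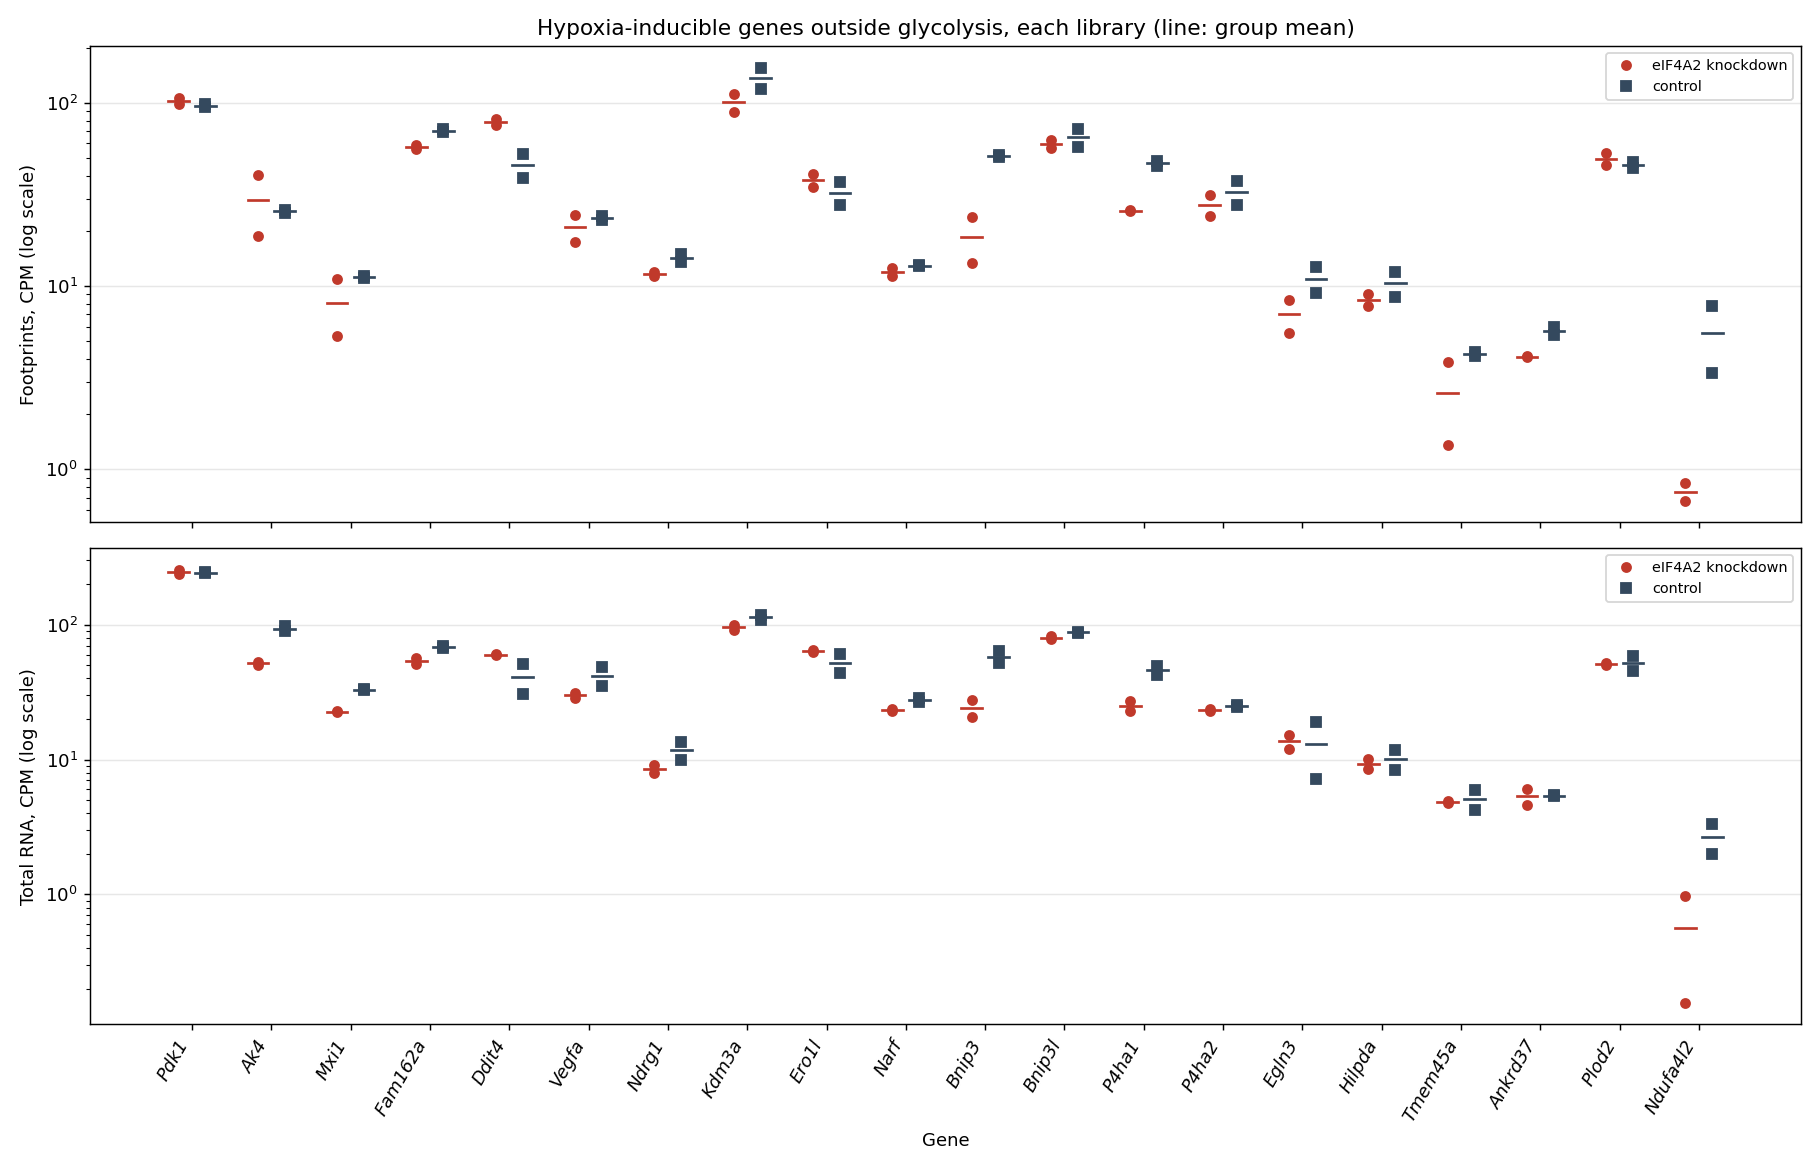
CPM on a log axis of the 20 hypoxia-inducible genes, in footprints (top) and total RNA (bottom), with red circles for the 2 eIF4A2 knockdown libraries, dark squares for the 2 control libraries and a line at each group's mean. Bnip3, P4ha1 and Ndufa4l2 lie below their controls in both panels; Ak4 does so only in total RNA, where it has 52.7 and 50.6 CPM in the knockdown, against 89.5 and 97.1 CPM in the control.

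Of the mitochondrial genes on the list, Bnip3 and Ndufa4l2 were the furthest below control. Bnip3, a receptor that marks mitochondria for autophagy, had 23.9 and 13.4 CPM of footprints in the knockdown libraries, against 50.6 and 51.7 CPM in the control libraries. In total RNA it had 27.5 and 20.5 CPM in the knockdown, against 52.4 and 63.7 CPM in the control. This came to 36.4% and 41.4% of the control mean, with log2 fold changes of -1.46 ± 0.26 and -1.25 ± 0.20 and limma's adjusted p at 0.103 and 0.105. The knockdown libraries differed, replicate 2 being lower in both assays. The authors' deposited table gave FDRs of 5.58e-04 in footprints and 1.56e-05 in total RNA. Its paralog Bnip3l, also a mitophagy receptor, stayed close to control, with 56.8 and 62.8 CPM of footprints in the knockdown, against 57.6 and 72.4 CPM in the control, and 77.8 and 82.3 CPM of total RNA in the knockdown, against 87.4 and 88.5 CPM in the control. Bnip3 accordingly held 29.6% and 17.6% of the footprints of the pair in the knockdown, against 46.8% and 41.7% in the control.

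Ndufa4l2, a HIF target that restrains respiratory complex I, was scarce in all libraries. It had 0.675 and 0.837 CPM of footprints in the knockdown, from 6 and 8 reads, against 7.75 and 3.37 CPM in the control, from 73 and 34 reads. In total RNA it had 0.158 and 0.977 CPM in the knockdown, from 2 and 13 reads, against 3.31 and 2.00 CPM in the control, from 29 and 18 reads. Both knockdown libraries were below both controls in each assay, but at this depth the size of the difference is uncertain (-1.82 ± 0.39 and -1.25 ± 0.34, limma's adjusted p = 0.138 and 0.189). Ak4, a mitochondrial adenylate kinase, had 52.7 and 50.6 CPM of total RNA in the knockdown, against 89.5 and 97.1 CPM in the control (-0.84 ± 0.13, limma's adjusted p = 0.105, and an FDR of 0.00193 in the authors' deposited table). Its footprints were 40.2 and 18.7 CPM in the knockdown and 26.1 and 25.0 CPM in the control, so that 1 knockdown library lay above both controls and the other below them. Without knockdown 1 the footprint log2 fold change was -0.43, against 0.10 with it. Fam162a, a small mitochondrial protein, had 58.7 and 55.7 CPM of footprints in the knockdown, against 71.7 and 69.0 CPM in the control, and 51.3 and 56.3 CPM of total RNA in the knockdown, against 67.3 and 70.0 CPM in the control. Pdk1, the kinase that inhibits pyruvate dehydrogenase and so keeps pyruvate from oxidation, was not lower, with 107 and 98.8 CPM of footprints in the knockdown, against 98.0 and 95.0 CPM in the control, and overlapping total RNA (0.02 ± 0.13).

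Among the genes of collagen folding and secretion, P4ha1 was the furthest below control. P4ha1, a catalytic subunit of collagen prolyl hydroxylase, had 25.5 and 26.0 CPM of footprints in the knockdown, against 47.9 and 45.4 CPM in the control. Total RNA of P4ha1 was 27.1 and 22.9 CPM in the knockdown, against 42.3 and 49.2 CPM in the control. The values were 55.3% and 54.6% of the control mean, with log2 fold changes of -0.83 ± 0.18 and -0.85 ± 0.17, limma's adjusted p at 0.136 and 0.122 and FDRs of 0.0434 and 0.00381 in the authors' deposited table. P4ha2, the other catalytic subunit on the list, had 31.3 and 24.2 CPM of footprints in the knockdown, overlapping with 37.6 and 27.7 CPM in the control, and its total RNA log2 fold change was -0.09 ± 0.15. P4ha1 thus held 53.2% and 49.9% of the total RNA of the pair in the knockdown, against 62.4% and 66.8% in the control. Plod2, a lysyl hydroxylase of collagen, overlapped between groups in both assays (0.11 ± 0.18 in footprints and -0.01 ± 0.17 in total RNA). Ero1l, which oxidises thiols of proteins folding in the endoplasmic reticulum, had 41.1 and 34.6 CPM of footprints in the knockdown and 37.2 and 27.6 CPM in the control, and 62.3 and 65.4 CPM of total RNA in the knockdown, against 60.5 and 43.5 CPM in the control.

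The genes of growth and stress signalling on the list did not share a direction. Ddit4 (REDD1), an inhibitor of mTORC1 that other stress pathways raise as well, had 81.8 and 75.4 CPM of footprints in the knockdown, against 52.6 and 39.0 CPM in the control, 172% of the control mean. In total RNA Ddit4 had 59.6 and 60.5 CPM in the knockdown, against 50.9 and 30.5 CPM in the control, the controls being far apart. The log2 fold change came to 0.78 ± 0.19 for footprints and 0.59 ± 0.25 for total RNA (limma's adjusted p = 0.177 and 0.342), and the authors' deposited table gave FDRs of 0.0679 and 0.230. Mxi1, an antagonist of MYC, had 10.9 and 5.34 CPM of footprints in the knockdown, against 11.4 and 11.1 CPM in the control, and 22.7 and 22.4 CPM of total RNA in the knockdown, against 32.7 and 33.2 CPM in the control. In footprints it was knockdown 2 that was low, whereas the total RNA values of each group lay close together (-0.53 ± 0.14, limma's adjusted p = 0.194). Vegfa, the growth factor of blood vessels, had 31.4 and 28.4 CPM of total RNA in the knockdown, against 48.8 and 34.8 CPM in the control, and overlapping footprints (-0.18 ± 0.23). Ndrg1, a stress-responsive gene, had log2 fold changes of -0.27 ± 0.23 and -0.40 ± 0.21, and Hilpda, a protein of lipid droplets, had -0.26 ± 0.27 and -0.08 ± 0.22 with overlapping groups in both assays.

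The rest of the list showed small differences or few reads. Kdm3a, a histone lysine demethylase, had 89.0 and 112 CPM of footprints in the knockdown, against 119 and 156 CPM in the control, and 91.2 and 99.6 CPM of total RNA in the knockdown, against 108 and 119 CPM in the control. Egln3, a prolyl hydroxylase that is itself induced by HIF and acts back on it, had 8.44 and 5.54 CPM of footprints in the knockdown, against 12.6 and 9.12 CPM in the control. Its total RNA was 15.3 and 12.0 CPM in the knockdown and 19.0 and 7.21 CPM in the control, and without control 2 its log2 fold change there was -0.45 in place of 0.19. Narf had -0.10 ± 0.23 in footprints and -0.24 ± 0.15 in total RNA, with groups that did not overlap. Ankrd37, an ankyrin repeat protein, had 4.16 and 4.08 CPM of footprints in the knockdown, against 5.42 and 5.95 CPM in the control, and Tmem45a had 1.35 and 3.87 CPM in the knockdown, against 4.35 and 4.16 CPM in the control, from 12 to 42 reads per library. Total RNA of both genes overlapped between groups (-0.03 ± 0.21 for Ankrd37 and -0.06 ± 0.22 for Tmem45a).

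Footprints followed total RNA for most of the 38 genes. The sign of the log2 fold change was the same in both assays for 16 of 18 glycolytic genes and for 17 of 20 hypoxia-inducible genes, and 0 genes lay below their controls in 1 assay and above them in the other. As a description of 38 points that share the same 8 libraries, Pearson's r between the fold changes of the assays was 0.82 and Spearman's rho 0.72 (on the log2 scale). Neither these correlations nor the counts of equal signs and of opposite sides were computed over all genes. Whether the 38 genes differ from other genes in this was not tested. A change in translational efficiency (footprints relative to total RNA) was read from limma's interaction term between assay and knockdown, with the 8 libraries in 1 fit over 12358 genes. Its median was 0.05 for the glycolytic genes (7 of 18 negative) and 0.02 for the hypoxia-inducible genes (9 of 20 negative), where 50.8% of all genes were negative and their median was -0.0046. limma called 0 of the 38 after adjustment, as it did 0% of all genes, and 192 of all 12358 genes had an unadjusted p below 0.05. Of the 38 genes 0 were among those lower (0.599% of all) and 1 among those higher (0.955%).

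For single genes the differences between the assays were mostly of the size of their errors. Ak4 was the 1 higher gene (limma's unadjusted p = 0.0383 and adjusted p = 1.00), with a change in translational efficiency of 0.94 ± 0.40 on the log2 scale. Without footprint knockdown 1 this change was 0.41, and without footprint knockdown 2 it was 1.47. Next by p in the hypoxia list were Egln3 (-0.77 ± 0.54), Tmem45a (-0.58 ± 0.47), Ankrd37 (-0.36 ± 0.32) and Ndufa4l2 (-0.57 ± 0.54), genes with at most 194 reads in a library. In glycolysis they were Eno1 (-0.39 ± 0.25), Aldoc (0.42 ± 0.29), Pgk1 (0.30 ± 0.24), Slc2a3 (0.27 ± 0.26) and Tpi1 (0.24 ± 0.28). Pfkp had 0.05 ± 0.20, Bnip3 -0.22 ± 0.37 and P4ha1 0.02 ± 0.24, so that for Pfkp and P4ha1 the difference between the assays was a small part of the change in each. An error of this size leaves room for changes in translational efficiency that were not detectable with 2 libraries per group.

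**Figure D4:**
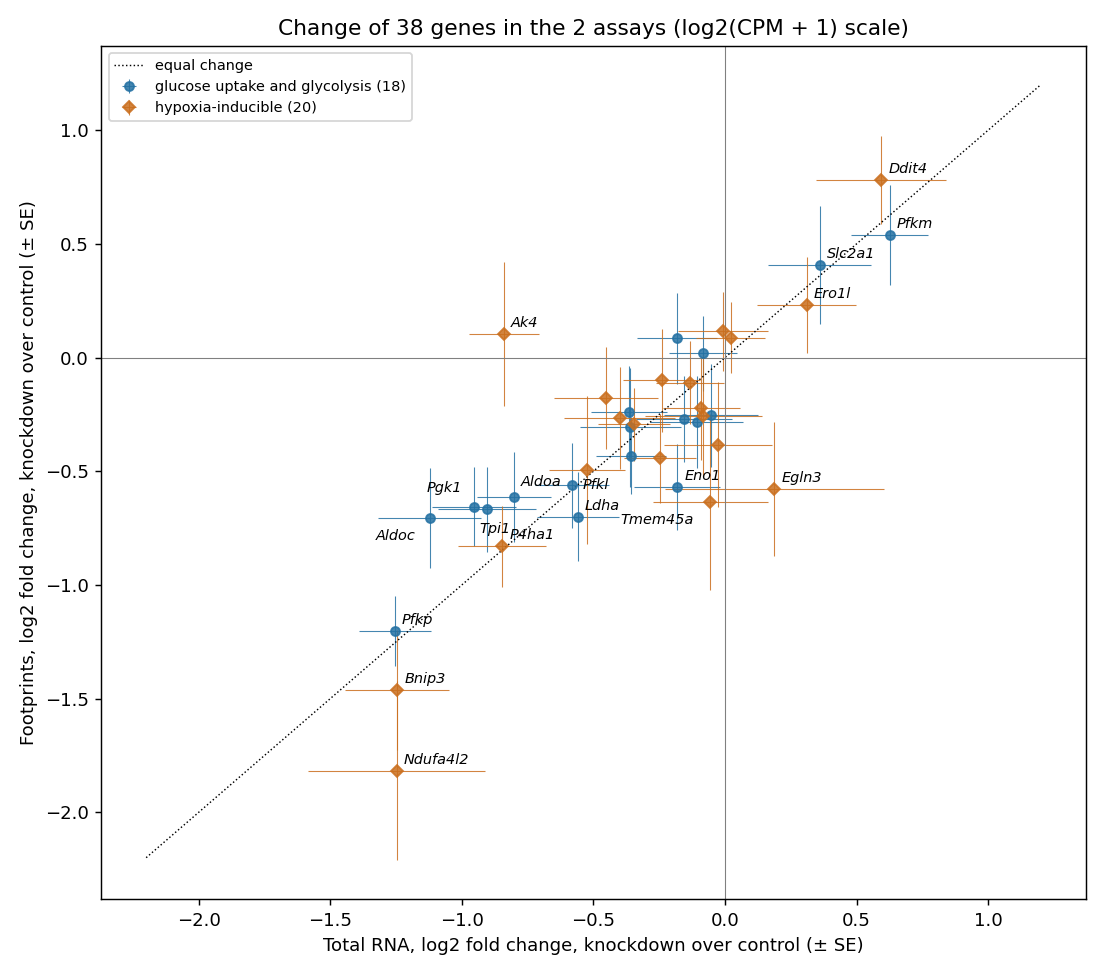
Log2 fold changes, knockdown over control, of the 18 genes of glucose uptake and glycolysis (blue circles) and the 20 hypoxia-inducible genes (orange diamonds), in total RNA (x axis) and footprints (y axis), with bars of ± 1 SE and a dotted line at equal change. Pfkp (-1.25 and -1.20) and Bnip3 (-1.25 and -1.46) lie low on both axes near the line, and Ak4 (-0.84 and 0.10) lies off it.

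Other genes of glycolysis and of the pentose phosphate pathway had medians nearer to 0 than the 18 genes. Of other glycolysis and lactate genes, 29 were measured in footprints, with a median log2 fold change of -0.15. At limma's unadjusted p below 0.05, 3 were lower (6.74% of all tested genes) and 1 higher (6.12%). Total RNA held 27 of them (median -0.16), with 5 lower (8.08%) and 0 higher (6.82%) in the same way. The lactate exporter Slc16a3 (MCT4) had 96.9 and 75.2 CPM of footprints in the knockdown, against 145 and 102 CPM in the control, and 68.2 and 51.2 CPM of total RNA in the knockdown, against 82.9 and 93.3 CPM in the control. Pgm1, a phosphoglucomutase that links glycogen to glycolysis, was low as well, with -0.77 ± 0.20 in footprints and -0.49 ± 0.15 in total RNA. Pgm2 had -0.61 ± 0.15 in total RNA. Tigar, a phosphatase that slows glycolysis, had -0.43 ± 0.18 and -0.44 ± 0.15, the neuronal enolase Eno2 had -0.79 ± 0.21 in total RNA, and Pgam5, a mitochondrial phosphatase despite its name, had 0.49 ± 0.17 in footprints. Of 8 genes of the pentose phosphate pathway, which branches off glycolysis, 0 had limma's unadjusted p below 0.05 in footprints. In total RNA 1 did, Taldo1 (-0.52 ± 0.17), which was lower, as 8.08% of all tested genes were.

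Most genes of the oxygen-sensing machinery itself had a negative log2 fold change in footprints, whereas in total RNA they showed no shared direction. Whether the assays differ for this list was not tested. The 14 measured genes had a median log2 fold change of -0.28 in footprints, near that of the hypoxia-inducible genes (-0.26). There 10 were negative, where 49.4% of all tested genes were. Both knockdown libraries lay below both controls for 6 of the 14 (22.5% of all tested genes) and above both for 3 (22.3%), and 5 overlapped. At limma's unadjusted p below 0.05, 2 were lower (6.74% of all tested genes) and 1 higher (6.12%). In total RNA the median was -0.07, with 7 negative and 7 positive, and 1 was lower (8.08%) and 0 higher (6.82%) in the same way. There 3 genes lay below both controls (24.6% of all tested genes), 1 above both (23.3%), and 10 overlapped. Hif1a, the alpha subunit that these targets respond to, had 94.2 and 133 CPM of footprints in the knockdown, against 135 and 148 CPM in the control, and 150.1 and 147 CPM of total RNA in the knockdown, overlapping with 124 and 175 CPM in the control. HIF activity is set mainly by the stability of this protein, which neither assay measures. Log2 fold changes of its partner Arnt were -0.20 ± 0.16 for footprints and 0.00 ± 0.22 for total RNA, and those of the main oxygen sensor Egln1 were 0.06 ± 0.28 and 0.02 ± 0.20. The second alpha subunit, Epas1, had 32.0 and 23.1 CPM of footprints in the knockdown, against 49.2 and 46.7 CPM in the control, and overlapping total RNA (-0.22 ± 0.30). Vhl, the substrate receptor of the ubiquitin ligase, had 21.4 and 13.7 CPM of footprints in the knockdown, against 11.2 and 9.42 CPM in the control, and 0.17 ± 0.16 in total RNA, while Elob, an adaptor of the same ligase, had -0.41 ± 0.17 in footprints and the prolyl hydroxylase Egln2 had -0.35 ± 0.14 in total RNA.

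Of 27 other measured HIF targets, 5 were lower and 1 higher at limma's unadjusted p below 0.05 in each assay. Of all tested genes 6.74% were lower and 6.12% higher in footprints, and 8.08% and 6.82% in total RNA. The medians of the 27 were -0.07 in footprints and -0.13 in total RNA. The enzymes Plod1 and Loxl2, which modify collagen, were the 2 that the authors' deposited table listed as lower, both in total RNA. Plod1, a lysyl hydroxylase, had 28.9 and 30.9 CPM of footprints in the knockdown, against 48.4 and 43.5 CPM in the control, and 26.4 and 26.2 CPM of total RNA in the knockdown, against 44.4 and 42.1 CPM in the control. Loxl2, a lysyl oxidase that cross-links collagen, had a footprint log2 fold change of -0.68 ± 0.24 and 9.87 and 8.04 CPM of total RNA in the knockdown, against 20.8 and 19.1 CPM in the control. The FDRs of total RNA in the authors' deposited table were 0.0169 for Plod1 and 6.18e-04 for Loxl2. The others with an unadjusted p below 0.05 were lower for Gys1 (glycogen synthase, -0.38 ± 0.17 in footprints and -0.51 ± 0.20 in total RNA), Cited2 (-0.41 ± 0.18) and Sap30 (-0.46 ± 0.16) in footprints and Wsb1 (-0.33 ± 0.13) and Rora (-0.58 ± 0.21) in total RNA, and higher for Ppp1r3c (0.87 ± 0.36) in footprints, from 10 and 16 reads in the knockdown, against 3 and 3 reads in the control, and Fut11 (0.50 ± 0.19) in total RNA. None of the genes of these 4 lists passed limma after adjustment in either assay.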

How the data were processed

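Footprints and total RNA of 8 libraries were used, 2 in each of 4 groups taken from the sample titles. The library columns hold signal on the CPM scale, which the authors deposited as reads per gene divided by an effective library size. The log2 fold changes, mean log2 CPM, the likelihood ratio as a score, and the p-values with FDR in the same tables are the authors' own deposited values. Per the submitters' processing notes, the build was mm9 and the tools, with no role given, edgeR 3.26.8, HTSeq 0.11.2, Bowtie 1.2.3 and TopHat2 2.1.1. No mm9 coordinates are printed, and promoters come from RefSeq tables of GRCm38.p6, searched for ACGTG and GCGTG on both strands.

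Values were whole multiples of the step that 1 read is worth in their column (100% of them, within 0.01 read), which gave reads back. In footprint control 2 that step lies too near 0.1 to be told from rounding, so no count test used that column. Its recovered reads still entered the filter, the scaling to total reads and the read numbers given here. The filter on low values was filterByExpr of edgeR 4.0.16 (minimum count 10, minimum total 15). limma 3.58.1 (R 4.3.3) was run on log2(CPM + 1) with its trend option, p-values were adjusted over all genes after Benjamini and Hochberg at 0.05, and the scripts were tested on simulated data. DESeq2 1.42.0 and edgeR's quasi-likelihood test were alternatives. The members, gene lists and tests were chosen with earlier results of these data known. The genes named are all 38 members, of the context lists those with an unadjusted p below 0.05, and Hif1a, Arnt, Vhl, Egln1 and Eif4a2 always. For translational efficiency they are, in each list, the 5 with the smallest p and any under 0.05, and Pfkp, Bnip3 and P4ha1 were added there after their values were seen. Nothing says that replicates came from separate cultures beyond the words biological replicates, so p-values measure the spread between these samples, which may be technical.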

Additional observations from a re-analysis of the deposited data

How the results depend on the processing

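In every alternative run, both list medians stayed negative in footprints and in total RNA. The cause of the changes in call or direction given here was not tested. Scaled to total reads, which moves the median of all genes to 0.12 in footprints and 0.06 in total RNA, the hypoxia-inducible median was -0.15 in footprints, the glycolytic median -0.29 and the hypoxia-inducible median -0.12 in total RNA, and 21 genes were called in footprints, Pfkp among them. In that scaling Narf (0.014) and Bnip3l (0.012) in footprints and Hk1 (0.019), Tmem45a (0.0052), Ankrd37 (0.034) and Plod2 (0.064) in total RNA turned positive. With all 8 libraries in 1 fit limma called 89 genes in footprints (0.72% of those tested), with Pfkp and Bnip3. In total RNA that fit called 97 (0.785%), with Pfkp, Aldoc and Pgk1. DESeq2 called 272 in total RNA (2.02%), with Pfkp, Aldoa, Aldoc, Tpi1, Pgk1, Ak4, Bnip3 and P4ha1. No label says what a replicate number marks, so samples are taken to share only a number. Deviations of knockdown 1 and control 1 from their group means correlated at 0.23 for footprints and at -0.27 for total RNA; those of footprints and total RNA of replicate 1 correlated at 0.10 in the knockdown and at 0.21 in the control. The replicate block gave 21 calls in footprints (0.165%), with Pfkp, and 636 in total RNA (4.73%), with the same 8 members as DESeq2 and Ndufa4l2. A block with crossed numbers gave 924 in total RNA (6.88%), with these 9, Pfkl, Pfkm and Ddit4. edgeR's quasi-likelihood test without footprint control 2 gave a glycolytic median of -0.55 and 3 calls, and turned Slc2a1 (-0.0098), Slc2a3 (-0.078) and Bnip3l (0.058). The crossed block, the scaling to total reads and this test were chosen after seeing the data.

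Leaving out 1 library at a time, the glycolytic median ranged between -0.55 and -0.32 in footprints and between -0.40 and -0.29 in total RNA, and the hypoxia-inducible median between -0.24 and -0.19 in total RNA. For translational efficiency the medians ranged between -0.064 and 0.13 in glycolysis and between -0.024 and 0.068 in the hypoxia list. Called genes ranged between 1 (without control 2) and 36 (without knockdown 2) in footprints, between 34 (without knockdown 2) and 6191 (without control 1, with 3411 without control 2) in total RNA and between 0 and 1 in translational efficiency. These counts take a lone library to vary like the other group. The log2 fold change of Pfkp ranged between -1.22 and -1.18 in footprints and between -1.35 and -1.16 in total RNA. That of Bnip3 ranged between -1.86 and -1.07 in footprints and between -1.45 and -1.04 in total RNA. Depth limits Ndufa4l2 most, with 2 to 13 reads in its knockdown libraries. Single genes whose direction turned had these footprint ranges of the log2 fold change: Slc2a1 -0.014 and 0.83, Slc2a3 -0.085 and 0.25, Hk1 -0.54 and 0.029, Gpi1 -0.080 and 0.12, Ak4 -0.43 and 0.63, Vegfa -0.41 and 0.056 and Bnip3l -0.27 and 0.052. In total RNA the ranges were Hk1 -0.26 and 0.15, Gapdh -0.31 and 0.096, Ldhb -0.37 and 0.056, Pdk1 -0.032 and 0.075, Hilpda -0.31 and 0.14, Ankrd37 -0.20 and 0.14, Plod2 -0.19 and 0.18, Egln3 -0.45 and 0.83 and Tmem45a -0.27 and 0.15.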
